A study of Homo sapiens with 6 samples.

Results

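The immediate early and AP-1 genes described here were the 10 rows of the gene expression table whose symbol was FOS, FOSB, FOSL1, FOSL2, JUN, JUNB, JUND, ATF3, EGR1, or IER2, out of 46427 genes in the table. They were measured by RNA-seq of rRNA-depleted total RNA in 6 libraries from H460, H1299, and A549, which are established non-small cell lung cancer (NSCLC) cell lines grown from human tumors. Each line gave 1 control library, whose label gives no treatment, and 1 si-MALAT1 library from cells transiently transfected with siRNA against MALAT1, a long nuclear non-coding RNA. The study compared them to find genes that follow MALAT1. The study's methods describe both negative control cells and si-Control cells, and the labels do not say that the control libraries came from transfected cells, so MALAT1 lowering and siRNA transfection cannot be told apart in these pairs. The time between transfection and RNA isolation for sequencing was not given in the sources used here. With 1 library per line and condition, differences within a line have no replicate check, and tests across lines take the 3 lines as pairs.

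FOS and JUN proteins carry a basic leucine zipper (bZIP), through which they pair with each other to form the transcription factor AP-1. FOS family proteins (FOS, FOSB, FOSL1, FOSL2) do not pair with themselves and bind DNA with a JUN family partner (JUN, JUNB, JUND), whereas JUN proteins can also pair among themselves and with ATF proteins such as ATF3. FOS, FOSB, JUN, JUNB, EGR1, and IER2 are immediate early genes. Their transcription starts within minutes of a growth factor, serum, or stress signal without new protein synthesis, and their mRNAs are then removed quickly. MAP kinases act on serum response factor with its ELK partners, on CREB/ATF proteins, and on JUN itself to switch them on. FOSL1 and FOSL2 follow later and are known as targets of AP-1 itself, and FOSL1 is high in many invasive carcinoma lines with active RAS signalling.

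FOS, FOSB, JUN, and EGR1 were higher in the si-MALAT1 library than in the control library of all 3 cell lines, by 2.17 to 7.68-fold for FOS, 2.38 to 6.99-fold for FOSB, 1.51 to 3.54-fold for JUN, and 1.97 to 3.64-fold for EGR1. FOSL1, FOSL2, JUNB, JUND, ATF3, and IER2 had no common direction. The 4 were higher in 3 lines beside 21.4% of all genes, and none of the 10 was lower in 3 lines, beside 18.8%. At least 1.5-fold higher in 3 lines were thus 4 of the 10 genes, beside 1.19% of the 17834 genes with a read in each library, and none of the 10 was 1.5-fold lower in 3 lines, beside 1.28%. The count was 3 with TMM-scaled counts and on the log2(TPM + 1) and log2(FPKM + 1) scales, where JUN in A549 was under the limit. In the paired edgeR quasi-likelihood test with Benjamini-Hochberg adjustment over 19122 genes, 0 of the 10 passed an adjusted p of 0.05. That test called 0.0% of genes higher and 0.00523% lower, the latter being MALAT1 alone (adjusted p = 0.0381). At an unadjusted p under 0.05, the same 4 of the 10 genes were higher, beside 7.38% of all genes tested, and 0 were lower, beside 7.59%. DESeq2, the tool named in the study's methods, called these 4 higher at an adjusted p under 0.05, beside 4.15% of the 13561 genes to which it gave an adjusted p, and 0 lower, beside 4.25%. For each gene whose DESeq2 adjusted p is printed here, that value was the lowest over the alternatives run and the highest was 1.0, from the edgeR fit without cell line as a block.

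The libraries held 42506818 to 68515992 counts, with both A549 libraries the shallowest. MALAT1 fell in every pair, with log2 fold changes of -2.32 for H460, -2.96 for H1299, and -2.84 for A549. Of the markers of the labelled cell type, KRT8 and KRT18, keratin genes of simple epithelium, were abundant in every library, at 123 to 1780 and 236 to 2920 TPM (read counts corrected for transcript length and for depth). EPCAM was low at 0.252 to 8.04 TPM, KRT19 and KRT7 were low in H1299, KRT19 was low in A549 too, and CDH1, the E-cadherin gene, was under 1 TPM in H460 and H1299. The 6 epithelial markers summed to 459 to 5510 TPM. The summed TPM was 0.242 to 20.0 for 6 fibroblast markers, 18.7 to 47.7 for 6 immune cell markers, and 0.0 to 1.11 for 4 endothelial markers. Among the immune markers, PTPRC and CD3E had 0 counts. CD68 (9.4 to 47.3 TPM) and CD14 (0.0241 to 9.25 TPM) gave nearly all of the immune sum. Of the fibroblast markers, COL3A1 reached 15.5 TPM and LUM 3.97 TPM. COL1A1, a collagen gene, and EPCAM were at least 1.5-fold higher in 3 lines, whereas KRT8 (-0.22, -0.22, and -1.16 on the log2 scale in H460, H1299, and A549) and KRT18 (-0.48, -0.10, and -1.23) were lower in 3 lines. In A549, KRT7, KRT8, and KRT18 were at least 1.5-fold lower, 3 of the 6 epithelial markers beside 11.4% of all genes. EPCAM and KRT19 were at least 1.5-fold higher there, 2 of the 6 beside 11.5%, and CDH1 was 1.42-fold higher. The 6 markers summed to 5510 TPM in the A549 control and 2450 TPM after si-MALAT1. The part of these markers in the results was not tested. CDKN2A, known to be deleted in A549 and H460, had 0 counts in those lines and reads in H1299.

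**Figure D1:**
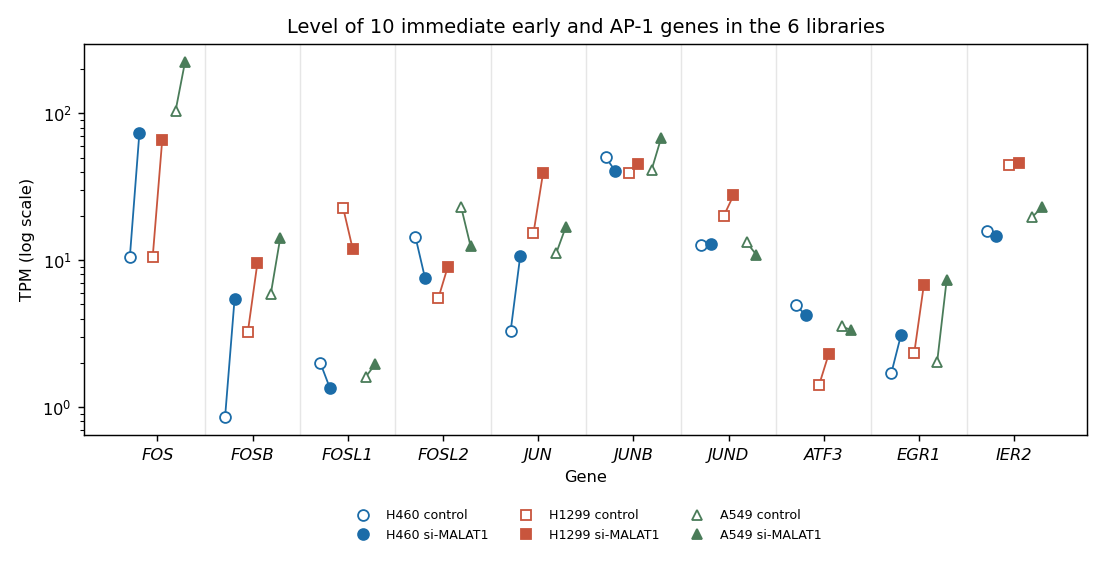
Level of each gene in TPM on a log scale, with open symbols for the control library and filled symbols for the si-MALAT1 library of H460 (circles), H1299 (squares), and A549 (triangles); each point is 1 library and each line joins a pair. FOS, FOSB, JUN, and EGR1 slope upward in all 3 lines, and FOSL1 stands between 12.0 and 22.8 TPM in H1299 and at or under 2.0 TPM elsewhere.

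The 5 promoters below are shown because 4 belong to the genes that were higher in all 3 lines and the last, that of JUNB, shares 2 elements with FOS and FOSB but had no common direction. Each is the 150 bases before the transcription start as RefSeq gives it on GRCh38.p14, written 5′ to 3′ on the strand of the gene: FOS at chr14:75278678-75278827 (+), FOSB at chr19:45467846-45467995 (+), JUN at chr1:58784048-58784197 (-), EGR1 at chr5:138465329-138465478 (+), and JUNB at chr19:12791336-12791485 (+). Capitals mark TGACG or its reverse complement CGTCA (the core of a CRE site, which CREB and ATF proteins bind), TATAAA (the TATA box core), TGACATCA (in JUN, a form of the AP-1/CRE site), and, in EGR1, the CArG box that serum response factor binds.
FOS: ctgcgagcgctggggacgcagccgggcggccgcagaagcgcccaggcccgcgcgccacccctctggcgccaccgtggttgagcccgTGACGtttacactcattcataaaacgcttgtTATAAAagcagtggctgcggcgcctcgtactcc
FOSB: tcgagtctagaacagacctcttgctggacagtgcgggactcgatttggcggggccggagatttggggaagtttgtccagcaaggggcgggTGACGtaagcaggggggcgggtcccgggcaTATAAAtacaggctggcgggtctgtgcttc
JUN: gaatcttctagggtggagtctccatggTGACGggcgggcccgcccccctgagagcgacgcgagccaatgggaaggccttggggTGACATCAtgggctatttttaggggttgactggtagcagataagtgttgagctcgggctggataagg
EGR1: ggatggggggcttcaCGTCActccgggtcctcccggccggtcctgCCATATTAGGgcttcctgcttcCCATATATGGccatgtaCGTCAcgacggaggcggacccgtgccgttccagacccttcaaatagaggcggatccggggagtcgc
JUNB: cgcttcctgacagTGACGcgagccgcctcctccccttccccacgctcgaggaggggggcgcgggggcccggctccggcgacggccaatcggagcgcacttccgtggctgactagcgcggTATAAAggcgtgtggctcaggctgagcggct

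Counted from the transcription start, the FOS promoter held TGACG at -64 to -60 and TATAAA at -33 to -28, and the FOSB promoter had the same pair of elements at -60 to -56 and -30 to -25. JUNB had TATAAA at a like position, -31 to -26, with TGACG further away at -137 to -133. The JUN promoter held TGACG at -123 to -119 and TGACATCA at -67 to -60, and no TATAAA. EGR1 was the one gene of the 9 searched with a match to the CArG box in the window, with copies at -105 to -96 and -83 to -74, and it had TGACG on the opposite strand at -135 to -131 and -66 to -62. The 250 bases before the start were searched in 35116 RefSeq promoters, and a gene counted if any of its promoters matched. TGACG, on either strand, was present for 8 of the 9 genes found in the table (all but ATF3) and in 21.2% of all promoters. TATAAA, searched on the strand of the gene only, was present for 4 of 9 (FOS, FOSB, JUNB, and ATF3) and in 6.8% of all. The ATF3 match was at -230 to -225 of its downstream promoter, further from the start than those of FOS, FOSB, and JUNB. Both words together were present for 3 of 9 (FOS, FOSB, and JUNB) and in 1.07%, and the CArG box for 1 of 9 and in 1.16%. TGACATCA, a word chosen after the sequences were seen, was present for JUN and ATF3 and in 2.37% of all promoters, and the consensus AP-1 site TGANTCA for 0 of 9 and in 6.57%. GGGCGG, the core of the site for SP1, was present for 7 of 9 and in 42.6%. These are matches of letters in a window and not measured binding. Sites further than 250 bases before the start, including any CArG box of FOS or the other genes, were not searched for. FOSL1 was not in the promoter table.

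FOS (gene ID 2353, chr14:75278828-75282230, + strand, 4 exons, GRCh38), the archetype of the family, was at 10.5 TPM in the H460 control and 73.4 TPM in the H460 si-MALAT1 library. It was at 10.5 and 66.0 TPM in the same libraries of H1299, and at 104 and 225 TPM in those of A549. The A549 control was thus higher than the si-MALAT1 libraries of both other lines, so that the control and si-MALAT1 groups overlapped across lines although each pair differed by far more than its counting error. From 1287 and 9352 counts in H460, the log2 fold change, taken throughout as log2(scaled count + 1) of si-MALAT1 minus control, was 2.94 (95% exact interval 2.86 to 3.03, counting error only). It was 2.58 (2.50 to 2.67) in H1299, from 1276 and 6990 counts, and 1.12 (1.08 to 1.16) in A549, from 7677 and 18442 counts. Among the 17834 genes, FOS had rank 11 from the highest fold change in H460, rank 20 in H1299, and rank 613 in A549. The mean over the 3 lines was 2.21 ± 0.97 (SD, n = 3), and edgeR gave a log2 fold change of 2.20 with a standard error of 0.36 and an adjusted p of 0.0866. The adjusted p was 2.14e-09 with DESeq2 and 0.0582 to 0.173 when 1 line was left out of the edgeR fit.

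FOSB (gene ID 2354, chr19:45467996-45475179, + strand), which encodes a second strong activator of the family and is usually induced together with FOS, was the least abundant gene of the 10 in the H460 control. Its level was 0.847 TPM in the H460 control and 5.43 TPM after si-MALAT1, 3.26 and 9.57 TPM in H1299, with 5.86 and 14.2 TPM for A549. The H460 si-MALAT1 library remained just under the A549 control. The counts behind these levels were 187 and 1241 for H460, 686 and 1797 for H1299, and 774 and 2039 for A549. The log2 fold change came to 2.80 (2.59 to 3.04), 1.52 (1.39 to 1.65), and 1.25 (1.13 to 1.37), with a mean of 1.86 ± 0.83 (SD, n = 3). FOSB followed FOS in its order of lines, with H460 above H1299 and H1299 above A549. The edgeR log2 fold change was 1.81 (SE 0.30, adjusted p = 0.0901), with 1.16e-06 from DESeq2. Without H460, which had the largest change, the edgeR adjusted p was 0.023; without H1299 or A549 it was 0.147 or 0.46.

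JUN (gene ID 3725, chr1:58780791-58784047, - strand, 1 exon), the main partner of FOS and an activator of its own gene, was at 3.29 and 10.6 TPM in the H460 pair. It was at 15.3 and 39.1 TPM in the H1299 pair and at 11.2 and 16.9 TPM in the A549 pair. H460 had the lowest control level and the H1299 si-MALAT1 library the highest of all, and the groups overlapped because the H460 si-MALAT1 library was under the controls of H1299 and A549. The H460 pair had 625 and 2095 counts, the H1299 pair 2873 and 6416, and the A549 pair 1277 and 2139. Fold changes on the log2 scale of 1.82 (1.70 to 1.96), 1.29 (1.23 to 1.35), and 0.60 (0.50 to 0.70) had the same order of lines as those of FOS and FOSB. The A549 value was close to the 1.5-fold limit, which is 0.58 on the log2 scale, and was under it by less than rounding shows with TMM-scaled counts (0.58), and lower on log2(TPM + 1) (0.55), and on log2(FPKM + 1) (0.56). The mean was 1.24 ± 0.61 (SD, n = 3), and the edgeR value was 1.22 (SE 0.23, adjusted p = 0.108), with 6.75e-05 from DESeq2.

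EGR1 (gene ID 1958, chr5:138465479-138469303, + strand, 2 exons) encodes a zinc finger factor outside the AP-1 families that shares their upstream signals. It was the one gene of the 10 whose 3 si-MALAT1 levels, 3.08 TPM in H460, 6.75 TPM in H1299, and 7.32 TPM in A549, all stood above the 3 control levels of 1.71, 2.34, and 2.02 TPM. Over all 17834 genes, 1.39% had this separation in the same direction and 3.11% in the opposite one. Its order of lines was the reverse of that of FOS, FOSB, and JUN. The log2 fold change was 0.98 (0.78 to 1.19) in H460, from 313 and 585 counts, 1.46 (1.3 to 1.63) in H1299, from 424 and 1067 counts, and 1.86 (1.65 to 2.09) in A549, from 222 and 896 counts. EGR1 ranked 152 from the highest in A549, where FOS ranked 613, and ranked 704 in H460. The mean was 1.44 ± 0.44 (SD, n = 3), and edgeR gave 1.42 (SE 0.20, adjusted p = 0.0762), with 1.76e-06 from DESeq2 and 0.0291 in edgeR without H460, a fit that called 0.25% of genes higher. Without H1299 or A549, the edgeR adjusted p of EGR1 was 0.15 or 0.653.

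**Figure D2:**
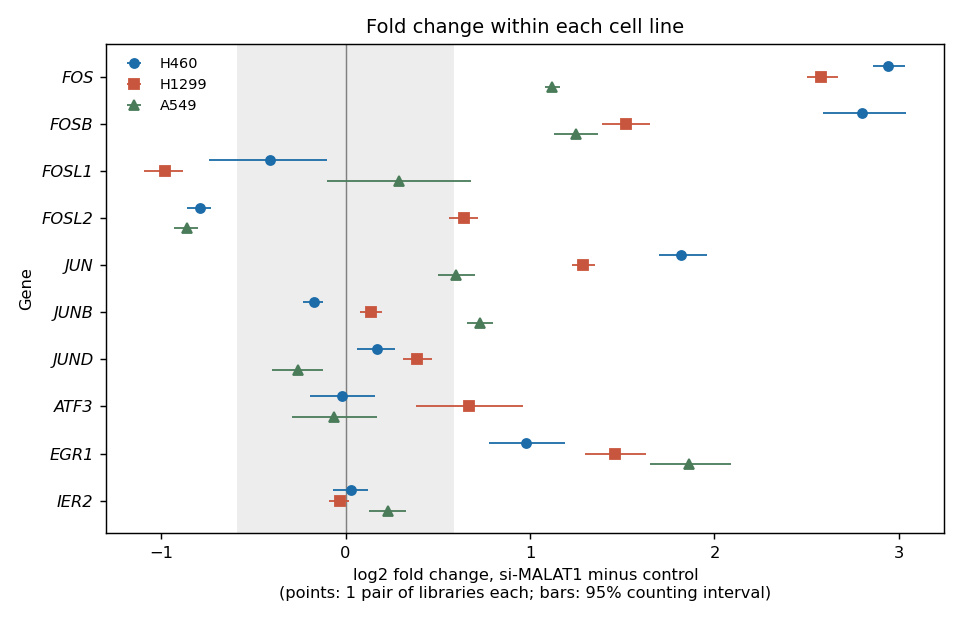
Log2 fold change of si-MALAT1 minus control for each gene in H460 (circles), H1299 (squares), and A549 (triangles), where each point is 1 pair of libraries, bars are 95% exact counting intervals, and the grey band spans changes under 1.5-fold. FOS, FOSB, JUN, and EGR1 lie to the right of the band in all 3 lines, and FOSL2 lies on opposite sides of it.

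FOSL1 (gene ID 8061, chr11:65892049-65900526, - strand), which encodes FRA-1, did not share the direction of FOS. It was at 2.0 and 1.35 TPM in the H460 pair, at 22.8 and 12.0 TPM in the H1299 pair, and at 1.61 and 1.96 TPM in the A549 pair. H1299 was high in both conditions and the other lines were low in both. In H1299, where the gene had 2222 and 1025 counts, the level in the si-MALAT1 library was 0.505 times that in the control, a log2 fold change of -0.98 (-1.09 to -0.88). H460 gave -0.41 (-0.74 to -0.10) on 199 and 141 counts, and A549 gave 0.29 (-0.10 to 0.68) on 97 and 131 counts, an interval that includes 0. The mean was -0.37 ± 0.64 (SD, n = 3; edgeR adjusted p = 0.497).

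FOSL2 (gene ID 2355, chr2:28392855-28417317, + strand), which encodes FRA-2, went opposite ways in the lines. It was at 14.4 and 7.58 TPM in the H460 pair and at 23.0 and 12.4 TPM in the A549 pair, but at 5.49 and 9.03 TPM in the H1299 pair. The log2 fold changes were -0.79 (-0.86 to -0.73), -0.86 (-0.93 to -0.80), and 0.64 (0.56 to 0.72), each on at least 2113 counts per library. The 3 si-MALAT1 levels lay closer together than the 3 control levels. FOSL2 was the one gene of the 10 at least 1.5-fold lower in H460 (background 10.3%) and in A549 (11.4%), and FOSL1 the one in H1299 (11.4%). In edgeR the FOSL2 change was -0.37 (SE 0.30, adjusted p = 0.637). FLJ31356, which overlaps FOSL2 on the other strand, had 9 to 22 counts per library.

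The proportions of the 4 FOS family genes differed within every pair. In the H460 control, FOSL2 led with 51.9% of the summed TPM of the family and FOS had 37.9%. In the H1299 control, FOSL1 led with 54.3% and FOS had 25.0%, and in the A549 control FOS itself led with 77.4%. After si-MALAT1, FOS led in all 3 lines, holding 83.6% (H460), 68.3% (H1299), and 88.7% (A549). The summed level of the family was 27.7 and 87.8 TPM in the H460 pair, 42.1 and 96.6 TPM in the H1299 pair, and 135 and 254 TPM in the A549 pair. FOSB stayed a minor share, at 3.06% to 7.74% in the controls and 5.6% to 9.9% after si-MALAT1. The share of FOSL2 was 8.63%, 9.34%, and 4.89% after si-MALAT1, and that of FOSL1 was 1.54%, 12.5%, and 0.774%. These shares of mRNA have no replicate within a line and do not give protein levels.

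**Figure D3:**
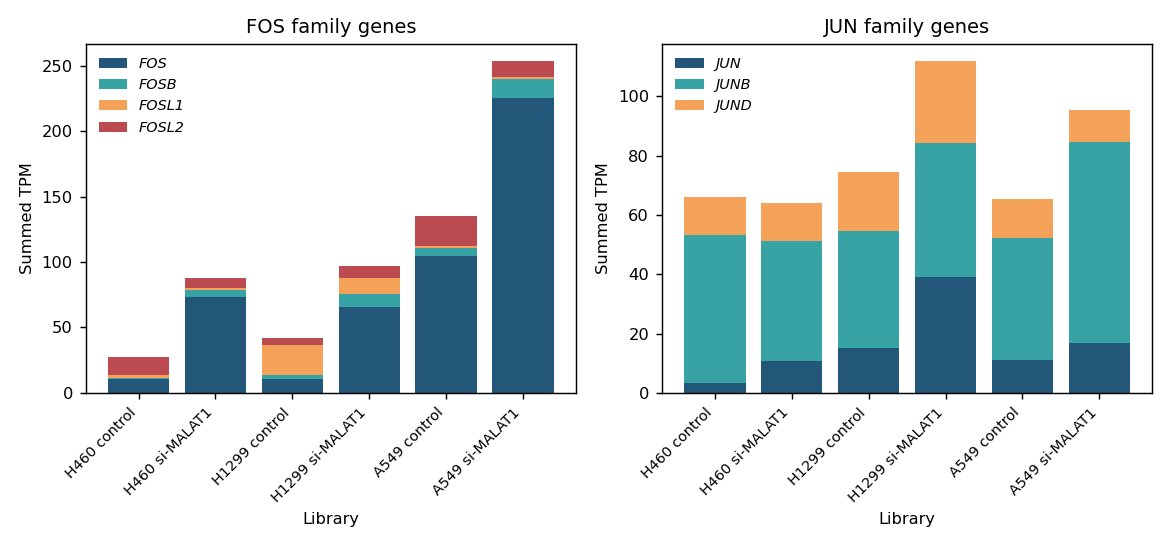
Summed TPM of the FOS family genes (left) and of the JUN family genes (right) in each of the 6 libraries, with 1 bar per library divided by gene. FOS takes most of the FOS family bar in the A549 control and in all 3 si-MALAT1 libraries, while JUNB is the largest block of every JUN family bar.

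JUNB (gene ID 3726, chr19:12791486-12793315, + strand, 1 exon), a weaker activator than JUN that can hold JUN activity back, was the most abundant JUN family gene per length in 6 of 6 libraries. It was at 50.1 and 40.4 TPM in the H460 pair, 39.2 and 45.1 TPM in the H1299 pair, and 41.1 and 67.7 TPM in the A549 pair. On the log2 scale, the change was -0.17 (-0.23 to -0.12) for H460, 0.14 (0.08 to 0.20) for H1299, and 0.73 (0.66 to 0.80) for A549, and so ran from slightly lower in H460 to clearly higher in A549, the reverse of the order for JUN. Its mean of 0.23 ± 0.46 (SD, n = 3) was smaller than the spread between lines (edgeR adjusted p = 0.648). JUND (gene ID 3727, chr19:18279694-18281622, - strand, 1 exon), the family member that resting cells keep on, was at 12.6 and 12.8 TPM in the H460 pair, 20.1 and 27.6 TPM in the H1299 pair, and 13.2 and 10.9 TPM in the A549 pair. These pairs gave log2 fold changes of 0.17, 0.39, and -0.26, with a mean of 0.10 ± 0.33 (SD, n = 3; edgeR adjusted p = 0.842).

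Within the JUN family, JUNB held 75.9% of the summed TPM in the H460 control, 52.5% in the H1299 control, and 62.8% in the A549 control. After si-MALAT1 it held 63.3%, 40.3%, and 70.9%. The share of JUN went from 5.0% to 16.7% in H460 and from 20.5% to 35.0% in H1299, and was 17.1% and 17.7% in A549. JUND went from 20.1% to 11.4% in A549 and was at 19.1% and 20.1% in H460 and at 27.0% and 24.7% in H1299. The summed level of the family was 65.9 and 63.8 TPM in the H460 pair, 74.6 and 112 TPM in the H1299 pair, and 65.4 and 95.5 TPM in the A549 pair. The FOS family total was therefore under the JUN family total in the H460 and H1299 controls and above it in the H460 si-MALAT1 library and in both A549 libraries. In H1299 after si-MALAT1 it was still lower, at 96.6 against 112 TPM.

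ATF3 (gene ID 467, chr1:212565334-212620777, + strand), a stress-induced bZIP gene whose protein represses many promoters, was at 4.93 and 4.21 TPM in the H460 pair, 1.41 and 2.28 TPM in the H1299 pair, and 3.53 and 3.33 TPM in the A549 pair. Its changes on the log2 scale were -0.02, 0.67 (0.38 to 0.96), and -0.06, so that H1299 alone, on 170 and 247 counts, differed beyond counting error. IER2 (gene ID 9592, chr19:13150411-13154911, + strand, 2 exons), an immediate early gene for a nuclear protein, was at 15.7 and 14.6 TPM, 44.8 and 45.8 TPM, and 19.7 and 22.9 TPM in the same order of lines. Its log2 fold changes of 0.03, -0.03, and 0.23 averaged 0.07 ± 0.14 (SD, n = 3; edgeR adjusted p = 0.86), the smallest spread of the 10 genes. On the log2(TPM + 1) scale, the H460 and H1299 values of IER2 took the opposite sign, -0.10 and 0.03. The mean of ATF3 was 0.20 ± 0.41 (SD, n = 3; edgeR adjusted p = 0.767).

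Within each line, the members at least 1.5-fold higher were 4 of 10 in H460 (9.5% of all genes), 6 of 10 in H1299 (11.7%), where FOSL2 and ATF3 joined the 4, and 5 of 10 in A549 (11.5%), where JUNB did. H1299 had 5 on log2(TPM + 1), where ATF3 was at 0.44, and 4 on log2(FPKM + 1), where ATF3 was at 0.36 and FOSL2 at 0.55, and A549 had 4 with TMM-scaled counts and on both those scales. Past a log2 value of 1.5 stood FOS, FOSB, and JUN in H460 (1.3% of all genes), FOS and FOSB in H1299 (1.0%), and EGR1 in A549 (1.68%). None of the 10 was at or under -1.5 in any line, beside 1.46%, 1.18%, and 1.68% of all genes. The median log2 fold change over the 10 genes was 0.10 in H460, 0.65 in H1299, and 0.44 in A549, beside 0.02, 0.02, and 0.01 over all genes. The low median in H460, the line with the largest values for FOS, FOSB, and JUN, came from the 6 other genes, which ran from -0.79 to 0.17 there.

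The lines also differed in the level at which they held these genes. In the edgeR F-test for cell line, with treatment as the other factor, 7 of 10 genes passed an adjusted p of 0.05, where 64.3% of all genes did, so the share is near the background. In pairs of lines, the background was 52.6% for H1299 against H460, 38.2% for A549 against H460, and 48.9% for A549 against H1299. FOSL1 had the largest differences, with H1299 above H460 by 2.99 (adjusted p = 0.000633) and a log2 difference of -3.13 for A549 minus H1299 (adjusted p = 0.000701), while A549 and H460 were not told apart (-0.14, adjusted p = 0.763). FOS was highest in A549, at 165 ± 85.3 TPM (mean ± SD of the 2 libraries), which exceeded H460 by 2.23 (adjusted p = 0.00955) and H1299 by 2.69 (adjusted p = 0.00361), and the latter lines did not differ beyond their spread (adjusted p = 0.381). FOSB was also higher in A549 than in H460, by 1.69 (adjusted p = 0.014), with H1299 between them and apart from neither. JUN was higher in H1299 than in H460 by 1.66 (adjusted p = 0.00363) and in A549 than in H460 by 0.92 (adjusted p = 0.0443).

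IER2 and JUND were highest in H1299 and ATF3 lowest there. IER2 was 1.23 above H460 (adjusted p = 0.000672) and differed from A549 by -1.03 for A549 minus H1299 (adjusted p = 0.00157). ATF3 differed by -1.63 for H1299 minus H460 (adjusted p = 0.00334) and by 1.20 for A549 minus H1299 (adjusted p = 0.0121). JUND was 0.55 higher in H1299 than in H460 (adjusted p = 0.0472), and A549 minus H1299 was -0.92 (adjusted p = 0.00874). FOSL2 (adjusted p = 0.0575), JUNB (0.201), and EGR1 (0.234) did not pass the F-test for cell line, and FOSL2 passed the DESeq2 likelihood ratio test for it (adjusted p = 0.0066), which called 8 of the 10. These differences rest on 2 libraries per line, 1 of which is a si-MALAT1 library.

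Most of the genes were short. The median gene length was 4163 bases, against 31487 bases over 13986 coding genes tested. ATF3, at 55444 bases, was longer than that, and 66.4% of coding genes were as short or shorter. For FOSL2, at 24463 bases, that share was 42.5%. JUN, JUNB, and JUND have 1 exon, as have 2.67% of the coding genes tested. Short-lived mRNAs of this class are known for AU-rich elements in the 3′ UTR, which contain ATTTA and recruit proteins that start decay. ATTTA was found in the 3′ UTR of 9 of the 10 genes (all but IER2), against 72.2% of the coding genes, and the longer TATTTAT in 7 of 10 against 35.4%. FOS had 5 copies of ATTTA in 806 bases, or 6.2 per kb, JUNB had 4.0 per kb and EGR1 0.818 per kb, and the median over coding genes was 1.69 per kb. The element of FOS with overlapping ATTTA copies is shown as the densest stretch of the gene with the largest change, at chr14:75282047-75282076 on the + strand of GRCh38, with ATTTA in capitals.
FOS 3′ UTR: aaacgttttattgtgtttttaATTTATTTA

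In density of ATTTA, JUNB came next after FOS and EGR1 came next to last, above IER2 alone.

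Other immediate early genes went both ways. Of 34 such genes, 31 were tested in edgeR and 0 passed in either direction. DESeq2 called 1 higher and 3 lower, beside 4.15% and 4.25% of all genes. At an unadjusted p under 0.05, 4 were higher and 6 lower, where all genes had 7.38% and 7.59%, and the median edgeR log2 fold change was 0.05, beside 0.00 over all genes. Of the 30 with a read in each library, 8 were higher and 11 lower in 3 lines, beside 21.4% and 18.8% of all genes. By line, 2 were at least 1.5-fold higher and 9 lower in H460 (9.5% and 10.3% of all genes), 10 higher and 3 lower in H1299 (11.7% and 11.4%), and 5 higher and 5 lower in A549 (11.5% and 11.4%). DUSP2, a MAP kinase phosphatase gene named here after its values were seen, was higher in 3 of 3 lines, at 1.42, 0.22, and 2.05 on the log2 scale, the last on 4 and 21 counts (edgeR adjusted p = 0.261). NR4A1, which encodes an orphan nuclear receptor, was lower in H460, at -0.61 on the log2 scale, and higher in the other lines, at 0.71 for H1299 and 0.75 for A549. In the same order of lines, DUSP1, whose protein switches MAP kinases off, had -0.53, 1.39, and -0.24, and ZFP36, whose protein binds AU-rich elements and speeds decay, had -0.69, 0.38, and 0.19. KLF6 had -0.46, 0.74, and -0.18. For NR4A1, DUSP1, ZFP36, and KLF6, H460 was thus lower and H1299 higher, whereas FOS was higher in both.

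CCN1, an immediate early gene for a secreted matrix protein, was lower in all 3 lines. The H460 pair had 1670 and 572 counts, the H1299 pair 2337 and 1050, and the A549 pair 780 and 369, which put the log2 fold change at -1.46 (-1.60 to -1.33), -1.02 (-1.13 to -0.92), and -1.22 (-1.41 to -1.04). The edgeR adjusted p was 0.0734, and that of DESeq2 was 1.12e-09. Without H460, H1299, or A549, the edgeR adjusted p was 0.0383, 0.131, or 0.46. CCN2, its relative and named here after its values were seen, had -0.99, -0.63, and -1.58 (DESeq2 adjusted p = 4.41e-05). PHLDA1 had -1.14, -0.17, and -0.47, IER3 had -0.47, -0.06, and -0.85, and IER5 had 0.00, -0.27, and -0.07. BTG2, an antiproliferative gene, had 0.68, 0.10, and 0.76. EGR2 and EGR3, paralogs of EGR1, had few reads. EGR2 had 7 and 0 counts in the H460 pair, 0 and 10 in the H1299 pair, and 0 and 10 in the A549 pair, and EGR3 had 0 and 7, 3 and 13, and 0 and 13. No fold change is given for them at this depth.

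**Figure D4:**
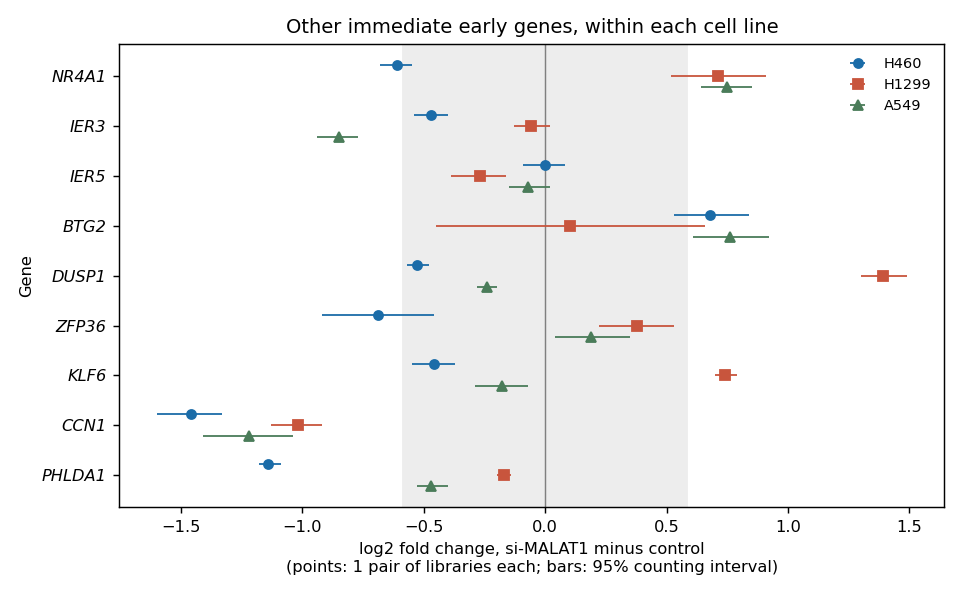
Log2 fold change of si-MALAT1 minus control for 9 other immediate early genes in H460 (circles), H1299 (squares), and A549 (triangles), with 95% exact counting intervals as bars and changes under 1.5-fold in grey. CCN1 lies left of the band in all 3 lines, and NR4A1, DUSP1, ZFP36, and KLF6 are negative in H460 and positive in H1299.

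Of 25 kinases and transcription factors upstream of the immediate early genes, 0 passed in edgeR and the median log2 fold change was 0.02. DESeq2 called 0 higher and 1 lower, beside 4.15% and 4.25% of all genes. SRF, the serum response factor, had a mean of -0.33 ± 0.05 (SD, n = 3), and ELK1, its partner, had -0.54 ± 0.16 (DESeq2 adjusted p = 0.0161, edgeR 0.134). ELK4 had 0.07, MAPK3 (ERK1) 0.10, MAPK9 (JNK2) 0.04, and RPS6KA3 (RSK2) 0.03 in the mean over lines. MAPK8, which encodes the kinase JNK1 that acts on JUN, had 0.35, 0.31, and 0.31, higher in 3 of 3 lines by less than 1.5-fold (edgeR adjusted p = 0.258). These are mRNA levels and carry no information on kinase activity.

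Of 12 genes for the turnover of FOS and JUN mRNA or protein, 0 passed in edgeR, and the median was -0.05. DESeq2 called 2 higher and 1 lower, beside 4.15% and 4.25% of all genes. KHSRP, whose protein binds AU-rich elements and promotes decay, had log2 fold changes of -0.64, -0.68, and -0.57, a narrow range (edgeR adjusted p = 0.0819, DESeq2 7.18e-06). HNRNPD, which encodes AUF1, had a mean of -0.23, ELAVL1, which encodes the stabilising protein HuR, had -0.03, and ZFP36L2 had 0.18. FBXW7 and COP1, ubiquitin ligase genes whose products remove JUN protein, had 0.32 and 0.19. ZFP36L1 and XRN1 were called higher by DESeq2 and are named after their values were seen; ZFP36L1 had 0.23, 1.09, and 0.53, and XRN1, the cytoplasmic exonuclease gene, had 0.28, 0.52, and 0.34.

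Of 18 other bZIP genes whose products pair or compete with FOS and JUN proteins, 16 were tested and 0 passed in edgeR, with a median of -0.17. DESeq2 called 0 higher and 3 lower, beside 4.15% and 4.25% of all genes. MAFF had -1.42, -0.31, and -1.21 (DESeq2 adjusted p = 0.0231). ATF4 and MAFK, named after their values were seen, were also called lower by DESeq2. ATF2, a JUN partner at CRE sites, had a mean of 0.07 ± 0.06 (SD, n = 3). ATF7 had -0.20, 0.89, and 0.20, BATF3 had 0.39, -0.62, and 0.10, and JDP2, a repressive JUN partner, had 0.02, -1.34, and -0.16.

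Of 28 genes known as AP-1 targets, 26 were tested, 0 passed in edgeR, and the median was -0.22. DESeq2 called 1 higher and 3 lower, beside 4.15% and 4.25% of all genes. Over the 23 with a read in each library, the medians by line were -0.27 in H460, 0.26 in H1299, and -0.49 in A549. At least 1.5-fold higher and lower were 2 and 6 in H460 (9.5% and 10.3% of all genes) and 7 and 0 in H1299 (11.7% and 11.4%). The counts were 1 and 9 in A549 (11.5% and 11.4%). In 3 lines, 3 were higher and 4 lower, beside 21.4% and 18.8%. A link between these values and the levels of FOS and JUN was not tested. CCND1, the cyclin D1 gene, was higher in all 3 lines, with 0.69 (0.63 to 0.75), 0.52 (0.49 to 0.55), and 0.78 (0.73 to 0.82) (edgeR adjusted p = 0.0994, DESeq2 4.76e-06). MMP1, the interstitial collagenase gene, had -0.50, 1.65, and -0.49, and HBEGF, a growth factor gene, had 0.06, 1.26, and -0.44. The urokinase receptor gene PLAUR had -0.83, -0.05, and -0.67, and the urokinase gene PLAU had -0.94, 0.02, and -0.71. CD44 had -0.60, -0.09, and -0.30. CXCL8, the interleukin-8 gene, went from 102547 to 30603 counts in H460, a log2 fold change of -1.66, and had -0.03 and -0.63 in H1299 and A549 (DESeq2 adjusted p = 0.0288). IL11 had 0.30, -0.07, and -1.54, and HMGA1 had a mean of 0.00. IL6 and EZR, named after their values were seen, were also called lower by DESeq2, IL6 on reads that were nearly all in H460.

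Likeness of pattern was measured by Pearson correlation of log2 levels over the 6 libraries among 14463 genes. It is a description over 6 libraries that share 3 lines, and a high value can come from line differences alone. For FOS, the most alike were MST1P2 (0.996), TEX261 (0.995), and REEP5 (0.991), and TEX261 was higher by 0.54, 0.56, and 0.33 on the log2 scale in H460, H1299, and A549. For JUN, they were LOC107986655 (0.985), MED20 (0.983), and PRKAA1 (0.979), of which LOC107986655 had log2 fold changes of 1.40, 0.86, and 0.78. For EGR1, they were HDAC8 (0.986), TMEM167A (0.985), and RECK (0.984), and RECK had 0.35, 0.64, and 0.83, in the same order of lines as EGR1. For FOSL1, DNAJC30 (0.999), KLRA1P (0.996), and PNISR (0.995) came first, with changes no larger than 0.20 in size for DNAJC30 and PNISR and of -0.18, -0.64, and -0.02 for KLRA1P.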

How the data were processed

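RNA-seq of 6 libraries was analysed. Per the labels and the methods, the authors prepared stranded, rRNA-depleted libraries, mapped reads with HISAT2 2.1.0 to hg38 (the processing notes list hg19 and GRCh38), and estimated abundances with StringTie (1.3.4b in the notes). Whether counting used strand was not given in the sources used here. The authors deposited gene counts, FPKM, and TPM; 18 value columns of other samples were not used.

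Counts were tested with edgeR 4.0.16 in R 4.3.3 (quasi-likelihood, TMM, filterByExpr, 19122 genes, Benjamini-Hochberg adjustment) with cell line as the replicate block, since both libraries of a pair come from 1 line, which leaves 2 residual degrees of freedom. DESeq2 1.42.0, with the same block and genes, other scaling, no filter, no block, and leaving out each line were alternatives. Within a line, log2(RLE-scaled count + 1) was compared over 17834 genes with a read in each library, with exact Clopper-Pearson 95% intervals that cover counting error only and no test. The genes named were the 10 members, those marked for naming in each list, and any list gene passing the paired edgeR test, of which there were 0. Genes called by DESeq2 alone were named after their values were seen. The values of 2 list genes are not reported here. Members and lists were chosen with earlier results of these data known. Promoters came from RefSeq (GRCh38.p14), and UTRs from the deposited annotation and the reference genome.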

Additional observations from a re-analysis of the deposited data

Results flagged for a closer look

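FOSL2 and JUNB went opposite ways in the cell lines after si-MALAT1. On the log2 scale, si-MALAT1 minus control was -0.79 for FOSL2 in H460 and -0.86 in A549, but 0.64 in H1299. For JUNB it was -0.17 in H460, against 0.14 in H1299 and 0.73 in A549. With 1 library per line and condition, these differences between lines were not tested.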

How the results depend on the processing

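The number of genes called depended on the tool and the lines entered. DESeq2 called 563 genes higher and 577 lower, where edgeR called 0 and 1, and the count of lower genes was 0 with no low count filter and 0 with no replicate block. Leaving out 1 line in turn gave 0 to 51 genes higher and 0 to 112 lower, with 51 and 112 without H460 and 0 without H1299 or A549; the cause was not tested. FOS, FOSB, JUN, and EGR1 kept their direction under every alternative run. They were called by DESeq2, and FOSB and EGR1 were called by edgeR without H460. With no replicate block, the adjusted p of FOS was 1.0. The paired log2 fold change ran from -0.03 (without A549) to 0.42 for JUNB, -0.02 (without A549) to 0.12 for IER2, -0.05 (without H1299) to 0.26 for JUND, and -0.04 (without H1299) to 0.30 for ATF3. Of the alternative values within a line, 97 moved by less than their counting interval and 23 by more, all 23 on a TPM or FPKM scale. The number of members at least 1.5-fold higher in 3 lines was 3 in place of 4 under TMM scaling, TPM, and FPKM, and 8 in place of 7 members differed between lines with DESeq2. For the cell line test, leaving out a line was not run because it removes a level of the factor. By counts in place of TPM, JUNB led the JUN family in 5 libraries, with JUN ahead in the H1299 si-MALAT1 library. With 3 pairs and 2 residual degrees of freedom, small changes could not be tested well, and A549 was sequenced least.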
